A study of Mus musculus with 32 samples.

Results

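Granulocyte-monocyte progenitors (GMP) are bone marrow cells from which neutrophils, monocytes and macrophages arise. RNA sequencing of this sorted gate was compared between mice with a Cre-targeted Cxadr gene and control mice, using the 8 GMP libraries among the 32 libraries of a study that also sorted LSK (stem and multipotent progenitor), CMP (common myeloid progenitor) and MEP (megakaryocyte-erythroid progenitor) cells from the same bone marrow. The libraries were chosen by their labelled gate alone. The Cxadr ko group held 4 Mx1-Cre+ Cxadrfl/fl mice and the control group 4 Mx1-Cre- Cxadrfl/fl mice, so that all 8 carried the floxed alleles and the groups differed in the Cre transgene as well as in Cxadr. The Mx1 promoter that drives the recombinase answers to interferon and is active in many cell types besides blood cells. The labels used here do not give age, any inducing treatment, or which part of Cxadr lies between the loxP sites. Each mouse gave 1 GMP library of 8313300 to 12346005 reads, sorted into TRIzol and made with a low-input kit, and 15593 of the 55487 genes in the table were tested, namely those with a normalized count of 10 or more in 4 or more libraries. Values below are normalized counts, and wherever 4 values of a group are listed they are those of mice 1 to 4 in that order. A mouse number stands for different animals in the genotypes, and in bulk samples fewer cells of a type and less RNA per cell cannot be told apart.

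Cxadr encodes the coxsackievirus and adenovirus receptor, an immunoglobulin-superfamily protein that joins neighbouring cells at tight junctions and also serves as a docking site for those viruses. Its partners on leukocytes include the junctional adhesion molecule encoded by Jaml. GMP are set apart from earlier progenitors by the massive synthesis of primary granule enzymes such as myeloperoxidase and neutrophil elastase, under transcription factors of the C/EBP family and PU.1, while cells poised towards monocytes and dendritic cells also carry Irf8.

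The gate carried the transcripts that define it in both genotypes. Mpo, myeloperoxidase, stood at 171440.0, 153099, 145846 and 199351 in Cxadr ko libraries and at 218677, 129144, 145674 and 162461 in control libraries. Elane, neutrophil elastase, averaged 57789 ± 10961 in Cxadr ko and 55621 ± 16287 in control GMP (SD, n = 4 each), whereas in the LSK gate its group means were 509.8 in Cxadr ko and 267 in control libraries. Of 19 T and NK cell genes, 5 passed the filter. The summed level of all 19, 9819 to 13890 in Cxadr ko and 10933 to 13233 in control libraries, was nearly all Nkg7, a granule membrane gene of cytotoxic cells chosen here after its values were seen, while Cd3e and Ncr1 did not exceed 14.1. Libraries did stand apart in ways that the genotypes do not explain. Along the first principal component of the log2 values, which took 28.8% of the variance, the library of Cxadr ko mouse 4 lay away from the other 7, and along the second, which took 18.8%, that of Cxadr ko mouse 2 did. Immunoglobulin genes took 1.15% of the reads of Cxadr ko mouse 2, where Igkc, the kappa light chain constant region, reached 55061. Mouse 1 of both genotypes, whose animal identifiers are set apart from those of the other mice, had low summed immediate early transcripts (34689 in Cxadr ko and 34043 in control mouse 1, against 50483 to 79764 in the other 6 libraries).

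The targeted gene itself was scarcely transcribed in GMP. Cxadr (ENSMUSG00000022865, GRCm38 chr16:78301489-78359774) had normalized counts of 12.4, 20.9, 18.0 and 17.6 in Cxadr ko libraries and 33.4, 21.3, 38.4 and 11.99 in control libraries. The groups overlapped: the Cxadr ko values lay close together, and the control group held both the highest values and the lowest of the 8. The log2 fold change was -0.48 (95% interval -1.45 to 0.49, limma adjusted p = 0.907), and an exact permutation test over the 8 libraries gave a two-sided p = 0.257, where 0.0286 is the smallest that 4 against 4 allows. At this depth a difference in Cxadr was not detectable, and gene-level counts also take reads from parts of the gene that Cre may leave in place.

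Across all genes tested the genotypes were called different in 3, all of them lower in Cxadr ko GMP: Cwc22 and the predicted genes Gm13694 and Gm13695. This is 0.0192% of 15593 genes at a limma Benjamini-Hochberg adjusted p under 0.05. Cwc22 encodes a spliceosome-associated factor that brings the helicase at the core of the exon junction complex to spliced RNA. The neighbouring copy Gm13696 had a difference of similar size without a call. The median of all genes was 0.003 on the log2 scale, with 7865 of 15593 genes higher in Cxadr ko.

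**Figure D1:**
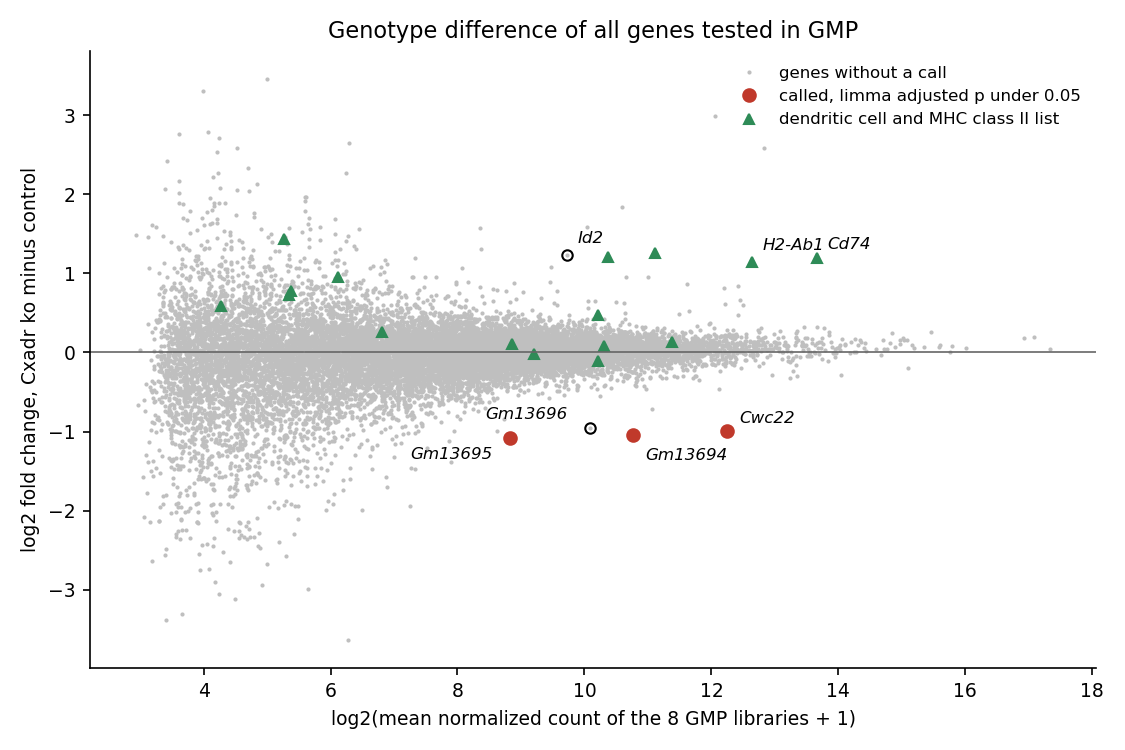
Log2 fold change of Cxadr ko minus control (vertical axis) against the log2 mean normalized count of the 8 GMP libraries plus 1 (horizontal axis) for the 15593 genes tested. Red points are the 3 called genes, open circles Gm13696 and Id2, and green triangles the tested members of the dendritic cell and MHC class II list; the spread of uncalled genes widens towards low counts.

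The predicted genes are near copies of most of the Cwc22 coding sequence, and they lie together on chromosome 2, away from Cwc22 itself. In the transcripts of GENCODE vM21 (GRCm38) the coding sequences of Gm13694 and Gm13696 were the same over all 2493 bases, and Gm13695 differed from them at 1 base. Each was 98.42% identical to Cwc22 over 2474 aligned bases, with an identical run of up to 344 bases. The sequences below, a window of 150 coding bases from each of 2 of the genes, are shown because few bases tell these transcripts apart. Capitals mark the 2 bases at which Cwc22 differs from the copies, and the window of Gm13694 reads the same in Gm13695 and Gm13696. The Cwc22 window (coding bases 68 to 217, ENSMUST00000065889) is spliced from exons within chr2:77929485-77932723 on the minus strand, and that of Gm13694 (coding bases 71 to 220) lies at chr2:83979003-83979152 on the plus strand.
Cwc22: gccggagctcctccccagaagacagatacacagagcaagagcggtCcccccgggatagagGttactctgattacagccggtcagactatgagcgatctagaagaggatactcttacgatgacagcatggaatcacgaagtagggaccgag
Gm13694: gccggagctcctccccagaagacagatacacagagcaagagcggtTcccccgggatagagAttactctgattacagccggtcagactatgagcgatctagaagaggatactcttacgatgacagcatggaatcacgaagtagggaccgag
Within this window, a read that covers a capital separates Cwc22 from the copies as a set, but not the copies from each other. A read that covers neither capital cannot be assigned even that far. The sources used here do not say how reads shared between genes were counted. The 4 values are therefore uncertain as separate measurements.

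Cwc22 (ENSMUSG00000027014, chr2:77881159-77946375) had 2914, 3258, 3683 and 3111 normalized counts in Cxadr ko libraries and 5304, 6672, 7408 and 6556 in control libraries. No library of one genotype reached the range of the other, and mouse 1 was the lowest and mouse 3 the highest in both. The fold of Cxadr ko over control was 0.502 (95% interval 0.421 to 0.597; log2 fold change -0.995 ± 0.11 with its SE, n = 4 each, limma adjusted p = 0.0233). Gm13694 (ENSMUSG00000096337, chr2:83978933-83981425) had 996, 1121, 1349 and 1072 in Cxadr ko and 1999, 2332, 2726 and 2327 in control libraries, and its log2 fold change was -1.05 ± 0.12 (SE, limma adjusted p = 0.0233). Its libraries followed the same order of mice as those of Cwc22. Gm13695 (ENSMUSG00000096729, chr2:83967313-83969805) had 241, 321, 291 and 313 in Cxadr ko and 608, 583, 624 and 645 in control libraries (log2 fold change -1.08, SE 0.13, limma adjusted p = 0.0233). Control libraries of this gene varied little, with an SD of 26.4. Gm13696 (ENSMUSG00000096484, chr2:83973123-83975615) had 623, 679.5, 910.4 and 739.9 in Cxadr ko and 1170.3, 1462, 1669.8 and 1405 in control libraries. These groups did not overlap either, but the log2 fold change of -0.95 ± 0.14 (SE) was not called (limma adjusted p = 0.169). The deposited table lists all 3 predicted genes as protein coding, while RefSeq (GRCm38.p6) lists them as pseudogenes.

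**Figure D2:**
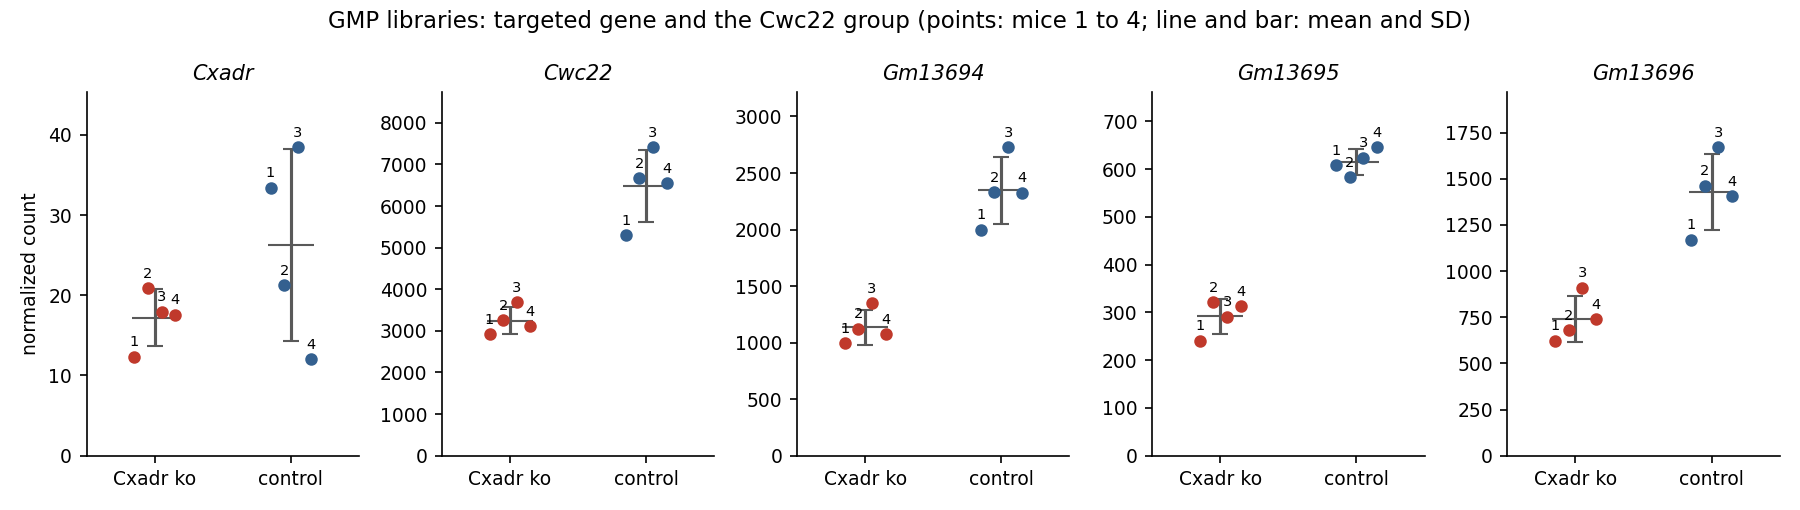
Normalized counts (vertical axes, starting at 0) of Cxadr and of the 4 near-identical Cwc22 genes in the 4 Cxadr ko (left, red) and 4 control (right, blue) GMP libraries. Points are numbered by mouse and the grey line and bar give mean and SD; the groups overlap for Cxadr and lie apart for the other 4 genes, with Cwc22 at 2914 to 3683 in Cxadr ko and 5304 to 7408 in control libraries.

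The Cwc22 difference was not shown to be particular to GMP. In the other gates of the same mice the log2 fold change of Cwc22 was -0.96 in LSK, -1.01 in CMP and -1.08 in MEP, and the GMP value minus their mean was 0.02 ± 0.05 (SE, limma adjusted p = 0.965). The rest of the machinery around Cwc22 gave no limma call. Of 22 exon junction complex and nonsense-mediated decay genes tested, Cwc22 was called, 8 had higher and 14 lower values, and the median was -0.06. Eif4a3, the helicase that Cwc22 delivers, had a log2 fold change of 0.00 and the core subunits Magoh and Rbm8a 0.06 and 0.01. Beside Cwc22, 2 members had an unadjusted p under 0.05, both with lower values, in a table where 3.46% of genes did so in that direction. They were the decay kinase gene Smg1 (log2 fold change -0.39, Cxadr ko 639.8 to 849.7, control 839.9 to 1185) and the decay factor gene Upf2 (-0.36, Cxadr ko 626 to 789.9, control 687 to 1032), which were named after their values were seen and whose groups overlapped.

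Among the 10 lower genes of lowest p, 4 were the Cwc22 group and the other 6 were not called. Tex2, a lipid-transfer protein of endoplasmic reticulum contacts, had 1065, 942, 995 and 910.4 in Cxadr ko and 1423, 1349, 1358 and 1621 in control libraries. Its groups lay apart, and the log2 fold change was -0.55 ± 0.10 (SE, limma adjusted p = 0.623). Rps29, a protein of the small ribosomal subunit, had 4224, 3566, 3920.0 and 3280.5 in Cxadr ko and 5168, 5690.4, 5359.7 and 4435 in control libraries (log2 fold change -0.46). Atp5k, a subunit of mitochondrial ATP synthase, had 1998, 1650.1, 1668 and 1470.2 in Cxadr ko and 2411, 2308, 2435 and 2127 in control libraries (log2 fold change -0.46). Neither gene had overlapping groups, and for both DESeq2 on the recovered reads made a call. Rfx3, a transcription factor of ciliary genes, had 53.3 to 88.8 in Cxadr ko and 113 to 173 in control libraries (log2 fold change -1.01). The transcript A530041M06Rik had a log2 fold change of -0.99 with overlapping groups. Gm37900 stood at 0 in Cxadr ko mice 2 and 4 and at most at 24.0 in any library, a level at which its fitted log2 fold change of -3.38 depends on the pseudocount. It passed the filter only through the control libraries, at 15.8 to 24.0, so its place here does not count as support for a difference. Over all genes, 296 had every Cxadr ko library below every control library, which is 1.9% of those tested, and 220 had the opposite order (1.41%).

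DESeq2 on reads recovered from the values called 14 genes, 0.0898% of the 15593 entered. It gave no adjusted p to most of these genes, and those could not be called there. Its adjustment therefore covered fewer genes than that of limma, and the counts of calls are not directly comparable. The quasi-likelihood test of edgeR on the same reads called the 3 that limma did. The DESeq2 calls were Cwc22, Gm13694 and Gm13696, together with Id2, Fcer1a and Lsp1, which were higher in Cxadr ko, and Tex2, Rps29, Atp5k, Marchf7, Zfp263, Rif1, Adam17 and Gm14303, which were lower. Gm13695, like Rnase6, Aplp2 and Klf1 below, received no adjusted p from DESeq2, so a call was not possible for it there. The log2 fold changes of the 5 genes not given elsewhere, Marchf7, Zfp263, Rif1, Adam17 and Gm14303, lay between -0.44 and -0.33 by DESeq2, and all 5 had a limma adjusted p = 0.873. They include the ubiquitin ligase gene Marchf7, the replication timing factor gene Rif1 and the sheddase gene Adam17.

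Among the genes with higher values in Cxadr ko GMP, none of which was called by limma, Id2 had the lowest p. Id2 encodes an inhibitor of E-protein transcription factors that is needed for dendritic and innate lymphoid cells. It had 841, 1134, 1577 and 1171 in Cxadr ko and 660.3, 509, 326 and 533 in control libraries. All Cxadr ko libraries lay above all control libraries, with mouse 1 of each genotype nearest to the other group. The fold was 2.34 (95% interval 1.65 to 3.32; log2 fold change 1.23 ± 0.23 (SE), limma adjusted p = 0.644, higher in 4 of 4 libraries), while DESeq2 gave an adjusted p of 8.3e-05. The log2 fold change was 0.56 in LSK, 0.63 in CMP and 0.70 in MEP, and the GMP value minus their mean was 0.60 ± 0.33 (SE, limma adjusted p = 0.736). Id2 lies on chr12:25093799-25097140.

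MHC class II genes, whose products present peptides on dendritic cells, macrophages and B cells, had higher values together with Id2. Of the 16 tested members of the dendritic cell and MHC class II list, 14 had higher and 2 lower values, with a median log2 fold change of 0.65. By limma, edgeR and DESeq2 0 were called. DESeq2 gave no adjusted p to some members, the transactivator gene Ciita among them, so those could not be called there. Unadjusted, 6 had a p under 0.05 with higher values, in a table where 2.19% of genes did. H2-Ab1, the beta chain of I-A, had 8586, 7849, 10779 and 6985 in Cxadr ko and 6404, 2659, 2459 and 5153 in control libraries. The groups lay apart, but control mouse 1 came close to Cxadr ko mouse 4, and the log2 fold change was 1.14 ± 0.28 (SE, limma adjusted p = 0.873). H2-Aa, the alpha chain of the same molecule, had 2938, 2826, 4209.8 and 2284 in Cxadr ko and 2139, 1073, 644 and 1649.6 in control libraries (log2 fold change 1.26 ± 0.32). Cd74, the invariant chain that guides class II molecules to the endosome, had 17992, 17383, 23218 and 12051 in Cxadr ko and 13359.5, 5477, 4500.1 and 9565 in control libraries (log2 fold change 1.20 ± 0.31). For Cd74 control mouse 1 stood above Cxadr ko mouse 4, so that its groups overlapped.

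H2-Eb1, Ciita and H2-DMb1 were chosen after their values were seen, since they fall outside the naming rule. Other class II genes, such as H2-DMa, are not reported here. H2-Eb1, the beta chain of I-E, had 1857, 1511, 2547 and 1219 in Cxadr ko and 1402, 536, 373 and 1096 in control libraries (log2 fold change 1.20 ± 0.38). Ciita, the transactivator on which class II transcription depends, had 84.5, 89.3, 135 and 53.6 in Cxadr ko and 62.1, 49.0, 24.2 and 50.2 in control libraries (log2 fold change 0.95 ± 0.36). H2-DMb1, which helps to load the peptide, had 1374, 1434, 1494 and 1185 in Cxadr ko and 1151, 902, 828 and 1107 in control libraries (log2 fold change 0.47 ± 0.13). In all 6 class II genes given here, a choice made partly by their values, Cxadr ko mouse 3 was the highest and control mouse 3 the lowest of the 8 libraries. These genes are therefore not separate pieces of evidence. Within this gate 3 members of the list (H2-Ab1, H2-Aa and H2-DMb1) had all Cxadr ko libraries above all control libraries, an order found in 1.41% of all genes tested. The difference was again not shown to be particular to GMP: H2-Ab1 had log2 fold changes of 0.66 in LSK, 0.58 in CMP and 1.06 in MEP, and the GMP value minus their mean was 0.37 ± 0.38 (SE, limma adjusted p = 0.892).

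Other genes of cells that carry class II molecules stood as follows beside these values. Among dendritic cell genes, Xcr1, a receptor of cross-presenting dendritic cells, had 132, 136, 222 and 22.8 in Cxadr ko and 112, 63.8, 38.4 and 162 in control libraries. Itgax, the integrin CD11c, had 35.0, 0, 41.0 and 30.8 in Cxadr ko and 12.98, 10.2, 3.29 and 13.1 in control libraries. Siglech, of plasmacytoid cells, was listed at 0 in mouse 4 of each genotype. The summed level of the 17 genes of the list was 29589 to 49541 in Cxadr ko and 14982 to 30553 in control libraries. Cd79a, a chain of the B cell receptor complex, had 4.12, 74.2, 23.1 and 14.9 in Cxadr ko and 5.56, 12.02, 3.29 and 3.27 in control libraries, and over 19 B lineage genes the sums were 3891 to 88088 in Cxadr ko and 3595 to 7114 in control libraries. The highest of these sums was that of Cxadr ko mouse 2, which stood below mice 1 and 3 of its group for H2-Ab1. The part of either cell type in the class II values was not tested.

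Promoters of class II genes share short elements, among them the Y box, an inverted CCAAT element bound by NF-Y. The promoters of H2-Aa and H2-Eb1 are shown because both genes had higher values and both windows hold the letters CTGATTGG. They run from 250 bases before to 50 after the gene start (RefSeq, GRCm38.p6), on chr17:34287774-34288073 (minus strand) for H2-Aa and chr17:34305617-34305916 (plus strand) for H2-Eb1, and the capitals mark that motif, 51 and 62 bases before the start.
H2-Aa: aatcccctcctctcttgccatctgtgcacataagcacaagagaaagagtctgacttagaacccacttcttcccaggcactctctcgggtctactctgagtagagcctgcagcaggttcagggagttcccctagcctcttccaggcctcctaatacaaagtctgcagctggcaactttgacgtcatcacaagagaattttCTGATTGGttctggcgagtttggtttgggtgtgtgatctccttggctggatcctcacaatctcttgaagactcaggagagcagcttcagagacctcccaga
H2-Eb1: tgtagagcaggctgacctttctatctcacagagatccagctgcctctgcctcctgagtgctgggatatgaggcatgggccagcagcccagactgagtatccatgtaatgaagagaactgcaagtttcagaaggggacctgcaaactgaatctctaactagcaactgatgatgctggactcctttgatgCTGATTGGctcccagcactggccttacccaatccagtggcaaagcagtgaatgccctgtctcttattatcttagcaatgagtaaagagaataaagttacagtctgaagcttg
On either strand these letters occur in 4.10% of the 32851 promoters in the table, and they are in neither of 2 windows of H2-DMa nor in that of H2-DMb1. The match describes the sequence and says nothing of binding in these cells.

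**Figure D3:**
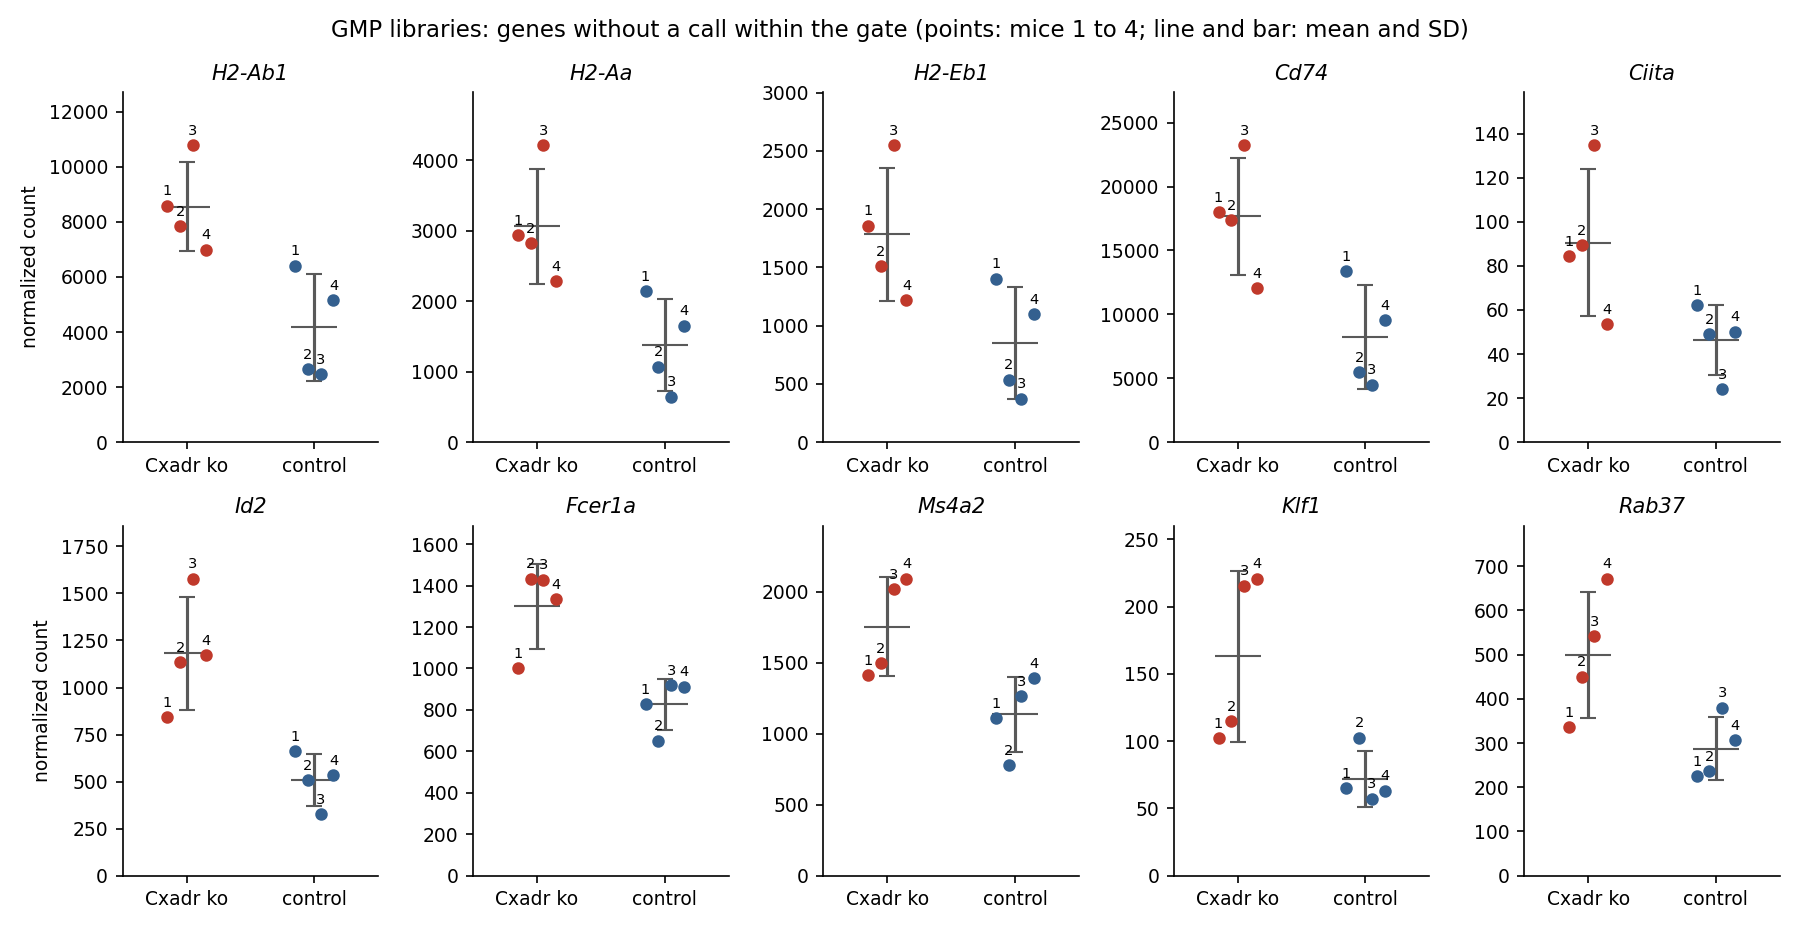
Normalized counts (vertical axes, starting at 0) of 10 genes without a limma call within the gate, in the 4 Cxadr ko (left, red) and 4 control (right, blue) GMP libraries. Points are numbered by mouse and the grey line and bar give mean and SD; in the class II genes Cxadr ko mouse 3 is the highest and control mouse 3 the lowest library.

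Mast cell and basophil genes had higher values in 10 of 11 tested members, with a median log2 fold change of 0.48, and 0 were called by limma. The 1 lower member had a log2 fold change of -1.19, while those of the higher members reached at most 0.86. Fcer1a, the alpha chain of the high-affinity IgE receptor, had 1001, 1432, 1428 and 1335 in Cxadr ko and 827, 652, 918 and 911 in control libraries (log2 fold change 0.65 ± 0.15, limma adjusted p = 0.873, DESeq2 adjusted p = 0.0184). Ms4a2, the beta chain of that receptor, had 1411, 1498, 2016 and 2089.7 in Cxadr ko and 1107, 778, 1264 and 1392 in control libraries (log2 fold change 0.64 ± 0.19). Neither gene had overlapping groups, although Ms4a2 in Cxadr ko mouse 1 lay only just above control mouse 4. Csrp3, a LIM protein of mast cell progenitors and muscle, had 509.8, 1031, 1228 and 1034 in Cxadr ko and 286, 581, 615 and 764 in control libraries (log2 fold change 0.77 ± 0.32). Il4, a cytokine of basophils and mast cells, also had separate groups, at 12.8 to 24.4 in Cxadr ko and 4.62 to 12.1 in control libraries. Fcer1a, Ms4a2 and Il4 were the 3 of 11 members with all Cxadr ko above all control libraries, an order found in 1.41% of all genes tested. Unadjusted, 3 members had a limma p under 0.05 with higher values, in a table where 2.19% of genes did. Prss34, a basophil protease, had 9134, 2015, 850.2 and 3582 in Cxadr ko and 6886, 810.3, 896 and 1023 in control libraries. Its groups overlapped, and mouse 1 was the highest library of each genotype. Of the connective tissue mast cell proteases, Tpsb2 was listed at 0 in all 8 libraries and Cma1 and Mcpt4 in all 4 Cxadr ko libraries.

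Granule genes, whose products mark the gate, gave no call. Of 14 primary granule and antimicrobial genes tested, 12 had higher values, but the median was 0.09 and 0 were called or had an unadjusted p under 0.05. Prtn3, proteinase 3, averaged 28469 ± 4491 in Cxadr ko and 27489 ± 3330.2 in control libraries (SD, n = 4 each), and Ctsg, cathepsin G, 27457 ± 2808 in Cxadr ko and 26728 ± 3043 in control libraries. The 95% interval of the Mpo fold, 0.817 to 1.31, holds changes of that size in either direction. Lyz2, the lysozyme of myeloid cells, had the lowest p of the list (log2 fold change 0.34).

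Late neutrophil genes varied with single libraries. Of 20 secondary and tertiary granule genes tested, 15 had higher values, the median was 0.49 and 0 were called. Camp, the cathelicidin precursor, had 349, 6032, 1479.8 and 492 in Cxadr ko and 40.8, 2212, 1513 and 772 in control libraries. Ngp, neutrophilic granule protein, had 613, 19545, 3851 and 1354 in Cxadr ko and 108, 5712, 3651 and 2897 in control libraries. In both genes Cxadr ko mouse 2 was the highest and control mouse 1 the lowest library. Without Cxadr ko mouse 2 the median of the list was 0.00, and without control mouse 1 it was -0.04, so its direction rests on these libraries. Retnlg, a resistin-like gene of neutrophils (log2 fold change 1.59), and Il1r2, the decoy receptor of interleukin-1 (1.19), were members of low p or wide range, with Retnlg at 284 to 2891 in Cxadr ko and 39.9 to 1532 in control libraries. Anxa1, annexin A1, had a log2 fold change of 0.29.

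Of 6 eosinophil genes tested, 4 had lower values in Cxadr ko GMP, and 0 were called. Prg2, the granule major basic protein, had 6098, 725, 746 and 822 in Cxadr ko and 2669, 2388, 1399 and 2219 in control libraries. Mice 2 to 4 of the Cxadr ko group lay below every control library and mouse 1 above every one. Epx, eosinophil peroxidase, had 328, 101, 10.3 and 7.91 in Cxadr ko and 296, 69.4, 132 and 264 in control libraries (log2 fold change -1.94 ± 1.02). The median of the list was -0.37. With 1 library left out it lay between -0.77, without Cxadr ko mouse 1, and -0.0027, without Cxadr ko mouse 3, so its size rests on single libraries. Rnase12 (log2 fold change 0.77) and Siglecf, a sialic acid-binding receptor of eosinophils (0.51), were the members with higher values.

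Among 16 monocyte and macrophage genes tested the median was 0.13, with 11 higher and 5 lower, and 0 called. It was 0.0054 without Cxadr ko mouse 1 and 0.42 without control mouse 1. Slamf7, a surface receptor of the SLAM family, had a log2 fold change of 1.56, the macrophage marker Adgre1 0.82 and the transcription factor gene Zeb2 -0.22. The lineage-setting transcription factors had a median of -0.09 over 21 genes. Irf8 averaged 2909 ± 687 in Cxadr ko and 2535 ± 766 in control libraries, Cebpa 441 ± 69.7 in Cxadr ko and 502 ± 80.8 in control libraries, and Gfi1 187 ± 73.6 in Cxadr ko and 226 ± 22.9 in control libraries (SD, n = 4 each). These 3 regulators had overlapping groups. Myb, which keeps progenitors cycling, had a log2 fold change of -0.30. The list of stem and multipotent progenitor genes had 8 higher and 11 lower values, with a median of -0.08 (0.12 without Cxadr ko mouse 1), and 0 were called.

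Erythroid genes had higher values in 9 of 12 members, with a median of 0.33 and 0 called. Klf1, the master regulator of erythroid genes, had 102, 115, 215 and 221 in Cxadr ko and 64.9, 103, 57.1 and 63.2 in control libraries. Mice 3 and 4 of the Cxadr ko group stood highest, and the groups overlapped by the values of Cxadr ko mouse 1 and control mouse 2 (log2 fold change 1.12 ± 0.31, limma adjusted p = 0.873). Hba-a2 and Hbb-bs, haemoglobin chains, had log2 fold changes of 1.33 and 1.12 at levels of 2.78 to 47.5, and Epor, the erythropoietin receptor, had 6.18 to 32.5 in Cxadr ko and 2.78 to 7.69 in control libraries and did not pass the filter. Without Cxadr ko mouse 4 the median of the list was 0.09. Among 14 megakaryocyte genes 8 had lower values (median -0.15), among them Pf4, platelet factor 4 (log2 fold change -1.37), and the integrin gene Itgb3 (-0.77). Without control mouse 1 that median was 0.01.

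**Figure D4:**
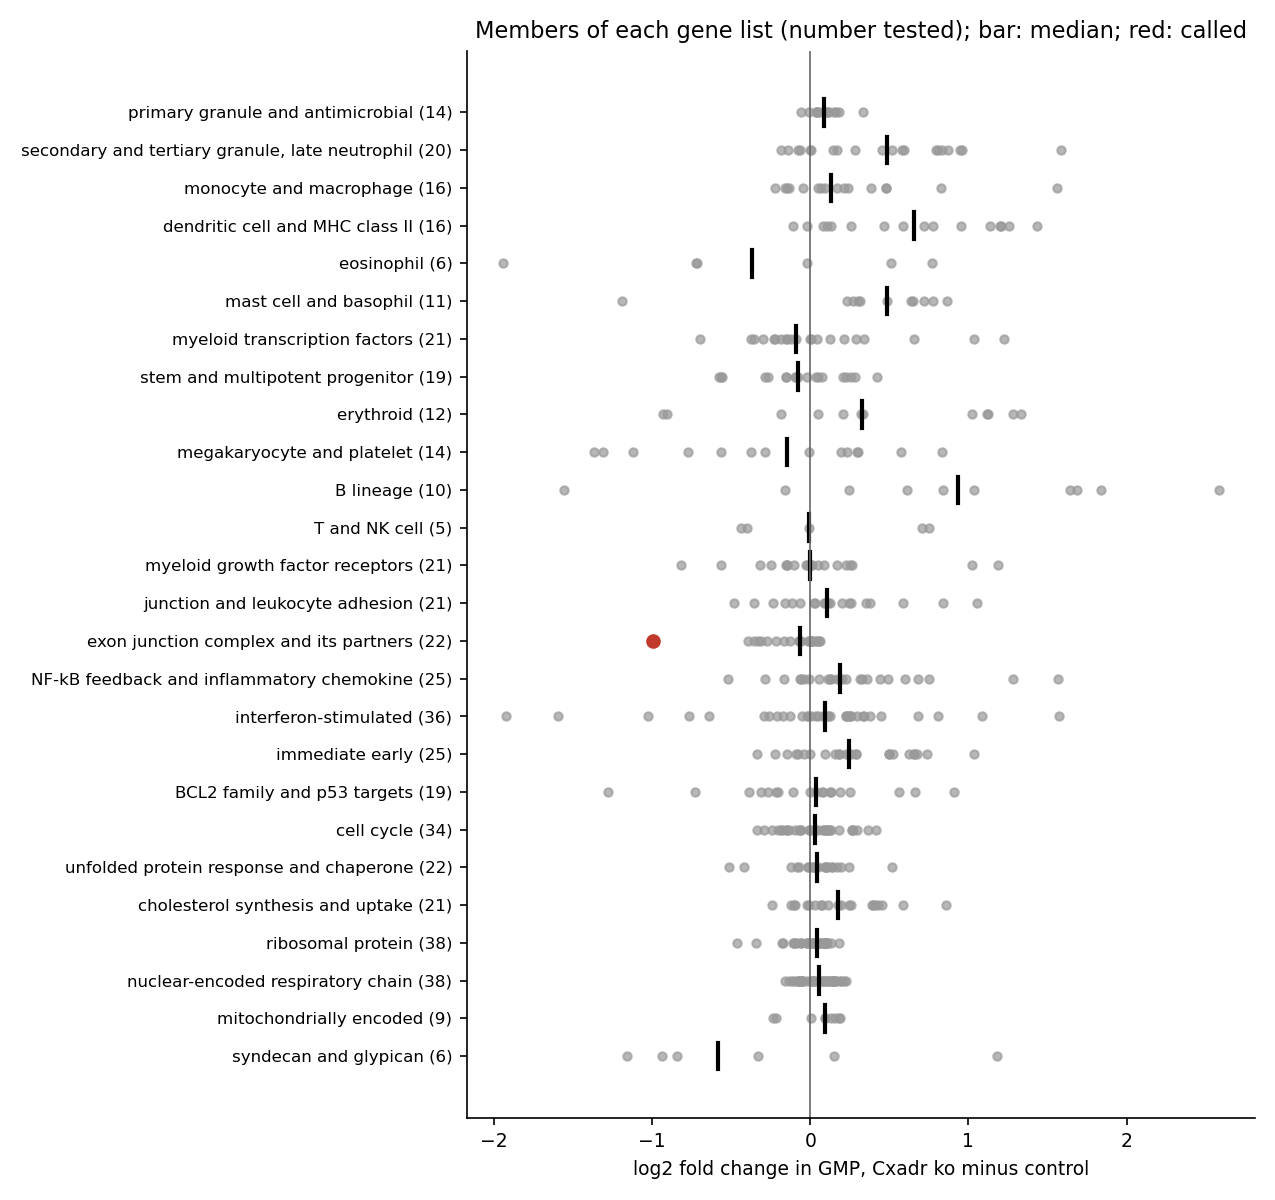
Log2 fold change of Cxadr ko minus control in GMP (horizontal axis) for each tested member (points) of 26 gene lists, with the number tested in brackets. Black bars are list medians and the red point is Cwc22, the called member; the largest medians, of the B lineage list and of the dendritic cell and MHC class II list, are 0.94 and 0.65.

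B lineage genes had the highest list median, 0.94 over 10 genes, of which 0 were called. Of 19 members these 10 passed the filter, Cd79a mainly through Cxadr ko libraries, so the median depends in part on that filter. Without Cxadr ko mouse 2 the median was 0.23. Beside Igkc, the joining chain gene Jchain reached 11867 in that library, against 29.5 to 66.9 in the other 3 Cxadr ko libraries and 21.96 to 233 in control libraries. Ighm, the heavy chain of IgM, stood at 19778 there. Dntt, the terminal transferase of lymphoid progenitors, had lower values in Cxadr ko, at 7.91 to 66.1 against 51.6 to 118 in control libraries (log2 fold change -1.56). Cd79b was the 1 member of 10 with all Cxadr ko above all control libraries (1.41% of all genes tested), at 816 to 988 in Cxadr ko and 703 to 792 in control libraries (log2 fold change 0.24). Of the 5 T and NK cell genes tested, 2 had higher and 3 lower values.

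Interferon-stimulated genes were examined because the Cre transgene answers to interferon. Of 36 tested, 23 had higher and 13 lower values, the median was 0.10 and 0 were called. The kinase gene Cmpk2 was the 1 member of 36 with all Cxadr ko above all control libraries (1.41% of all genes tested). It had 155 to 202 in Cxadr ko and 113 to 142 in control libraries (log2 fold change 0.45). Ifit2, an inhibitor of viral translation, had a log2 fold change of -0.77 and Lgals3bp, a galectin-binding glycoprotein, 0.33. NF-kB feedback and inflammatory chemokine genes had higher values in 18 of 25 (median 0.19, 0 called). The dendritic cell activation gene Cd83 had a log2 fold change of 1.57 and the chemokine genes Cxcl10 and Ccl4 had 0.75 and 0.33. Immediate early genes had a median of 0.25 over 25 genes, and without Cxadr ko mouse 1 it was 0.47.

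Genes of growth and metabolism lay close to the median of all genes. The median was 0.03 for 34 cell cycle genes, 0.04 for 38 ribosomal protein genes, 0.05 for 38 nuclear-encoded respiratory chain genes, 0.10 for 9 mitochondrially encoded genes and 0.04 for 22 chaperone and unfolded protein response genes, with 0 limma calls in each. With quantile normalization the ribosomal, mitochondrial and chaperone medians turned to -0.04, -0.01 and -0.02. Within these lists the mitotic genes Cdc20 and Ccnb2 had log2 fold changes of 0.30 and 0.27, and Cdk6, the kinase of early G1, -0.29. Of the 38 ribosomal protein genes, 2, Rps29 and Rpl38 (-0.34), had all Cxadr ko below all control libraries, an order found in 1.9% of all genes tested. The opposite order, found in 1.41% of all genes, held for 1 member. Rpl13 had a log2 fold change of 0.18. In the endoplasmic reticulum list Edem1, which sorts misfolded glycoproteins for disposal, had 432 to 624 in Cxadr ko and 669 to 967 in control libraries (log2 fold change -0.52). The stress sensor gene Atf6 had a log2 fold change of -0.42. Cholesterol synthesis and uptake genes had higher values in 15 of 21 (median 0.17), with Dhcr7 at 0.45 and Msmo1 at 0.41, both enzymes of late sterol synthesis.

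Pmaip1, the gene of the cell death inducer Noxa, had 1182, 1851, 1125 and 968 in Cxadr ko and 895, 925, 675 and 898 in control libraries. The groups lay apart by a small margin (log2 fold change 0.56 ± 0.19, limma adjusted p = 0.873), an order found in 1.41% of all genes tested. The p53 target Trp53inp1 had a log2 fold change of 0.91, and the list of 19 BCL2 family and p53 target genes had a median of 0.04 (-0.08 without Cxadr ko mouse 4). Of the 21 junction and leukocyte adhesion genes tested, 15 had higher values (median 0.10, 0 called). Ctnnb1, beta-catenin, had 419 to 599 in Cxadr ko and 616 to 820 in control libraries (log2 fold change -0.36), and Jaml, the leukocyte partner of the protein encoded by Cxadr, had 203, 159, 151 and 92.3 in Cxadr ko and 145, 85.1, 41.7 and 82.9 in control libraries (log2 fold change 0.84 ± 0.36). The groups of Jaml overlapped. Sdc2, a heparan sulfate proteoglycan, had 103, 35.9, 39.8 and 49.2 in Cxadr ko and 85.3, 105, 152 and 137 in control libraries. Apart from Cxadr ko mouse 1 its libraries did not overlap, and the log2 fold change was -1.16 ± 0.34 (SE, limma adjusted p = 0.873). Growth factor receptor genes had 10 higher and 11 lower values among 21, with Csf1r, the receptor that directs monocyte fate, at 501 ± 58.3 in Cxadr ko and 457 ± 140.2 in control libraries (SD, n = 4 each). Il1rl1, the interleukin-33 receptor of mast cells and basophils, had a log2 fold change of 1.02.

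The other genes with higher values of lowest p were of several kinds. Rnase6, an antimicrobial ribonuclease of monocytes, had 333, 303, 392.4 and 421 in Cxadr ko and 214, 122, 147 and 222 in control libraries, and the groups lay apart (log2 fold change 1.07 ± 0.21, limma adjusted p = 0.873). Lsp1, an actin-binding protein of leukocytes, had 1646, 1785, 2409 and 1694 in Cxadr ko and 1416, 1287, 1288 and 1267 in control libraries (log2 fold change 0.50 ± 0.13). Aplp2, an amyloid precursor-like protein, had 373, 434, 385 and 449.9 in Cxadr ko and 328, 280.3, 216 and 195 in control libraries (log2 fold change 0.71 ± 0.18). Ces2g, Lysmd4, Trim30b and Fam129a also had groups apart, with log2 fold changes of 1.503, 1.47, 1.56 and 0.71 and values between 11.1 and 343 over all 8 libraries. All Cxadr ko lay above all control libraries in 1.41% of all genes tested, and these genes were picked by their low p.

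Whether the genotype difference in GMP differed from that in the other gates was tested within mice over all 32 libraries. Of 18475 genes 1 was called (0.00541%), Rab37, a small GTPase of secretory vesicles. In GMP it had 336, 449.9, 541 and 671 in Cxadr ko and 225, 237, 379.9 and 306 in control libraries. Its groups overlapped in GMP, where Cxadr ko mouse 1 stood below control mouse 3, and the difference within the gate was not called (log2 fold change 0.78 ± 0.23, limma adjusted p = 0.873). Its log2 fold changes were -0.28 in LSK, -0.08 in CMP and -0.09 in MEP, and the GMP value minus their mean was 0.94 ± 0.14 (SE, limma adjusted p = 0.0154). In LSK it averaged 1072 in Cxadr ko and 1295 in control libraries, levels above those of GMP. The call was lost when Cxadr ko mouse 3 or 4, or control mouse 1, 2 or 4, was left out, with an adjusted p of up to 0.205.

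**Figure D5:**
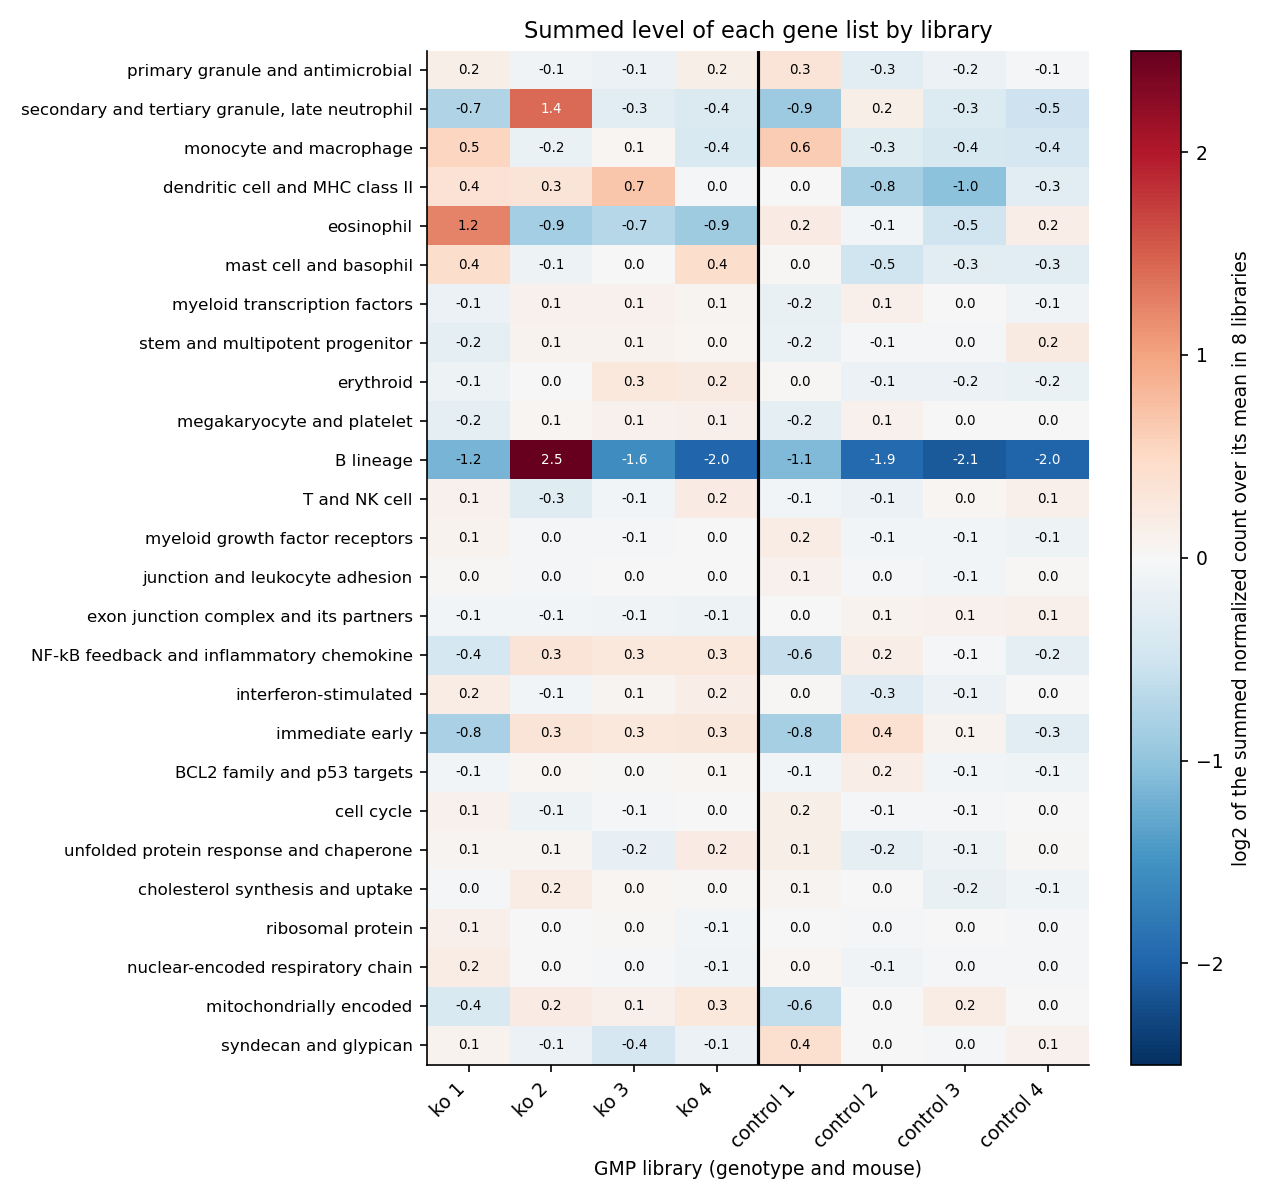
Summed normalized counts of each gene list in each GMP library (columns, Cxadr ko left of the line), as log2 of the sum over its mean in the 8 libraries (colour and printed value). Single libraries hold the extremes, 2.5 for B lineage genes in Cxadr ko mouse 2 and 1.2 for eosinophil genes in Cxadr ko mouse 1, and mouse 1 of both genotypes is low in immediate early genes at -0.8.

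How far 4 against 4 libraries can resolve a change depended on the level of the gene. The 95% interval of the log2 fold change lay wholly between -1 and 1 for 68.7% of the genes tested, for 28.3% of those with a mean under 100, for 91.4% between 100 and 1000 and for 98.7% above 1000. With 1 library left out the 3 calls did not all hold. The count was 2 when Cxadr ko mouse 3 or control mouse 1 was left out and 0 when any other single library was, while the log2 fold change of Cwc22 stayed between -1.09 and -0.93.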

How the data were processed

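The 8 GMP libraries came from 4 Cxadr ko and 4 control mice, 1 library each. The deposited table holds the authors' normalized counts per gene, a signal scaled per library; per the submitters' processing notes, STAR and DESeq2 were used with GRCm38 (mm10). The read counter, its treatment of multiply mapped reads and the annotation release are not stated there. Dividing each value by the step of 1 read (0.879 to 1.28 normalized counts in GMP) returned whole reads for 100% of the 765992 values above 0, within 0.001 reads.

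The main test was limma 3.58.1 (trend; R 4.3.3) on log2(value + 1), 4 against 4 without pairing, over the 15593 genes at 10 or more in at least 4 of the 8 libraries. Fold changes are on that scale and understate changes of low genes. A call is a Benjamini-Hochberg adjusted p under 0.05 over all genes tested. DESeq2, run with its default filter, instead left most genes without an adjusted p and adjusted over the rest. The difference between gates was fitted over all 32 libraries with the mouse as a block. Counts recovered as above went into edgeR 4.0.16, which called 3 genes, and DESeq2 1.42.0, which called 14. The procedures were tested on simulated data. Other settings, and libraries left out in turn, are given in the closing section.

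Named were Cxadr, the called genes, the 10 higher and 10 lower genes of lowest p, up to 3 uncalled or 4 called members of each of 26 lists, and lineage markers; 569 of 571 list symbols matched, and some named genes are not reported here. Members and lists were chosen with earlier results of these data known. Coding sequences are from GENCODE vM21, promoters from RefSeq. Intervals do not cover differences between litters or batches.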

Additional observations from a re-analysis of the deposited data

Results flagged for a closer look

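Among 116 genes in the 2 genotypes, 27 of 232 groups of 4 GMP libraries had 1 library far from the other 3. The rule flags about 1 group in 20 by chance only if values are normally distributed and groups independent. These were counts, some of only a few reads, and Igkc, Jchain and Ighm were flagged in the same libraries. The 27 groups therefore cannot be set against that rate. The values below are normalized counts.

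In the Cxadr ko group, mouse 2 stood apart for immunoglobulin transcripts, with Igkc at 55061, Jchain at 11867 and Ighm at 19778. Mouse 3 stood apart for Cd3e at 14.1, Ncr1 at 11.5 and Cd209a at 21.8, all genes near 0 in the rest of its group, and low for the Fc receptor gene Fcgr2b at 1034. Mouse 1 stood apart for the eosinophil gene Prg2 at 6098.

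In the control group, mouse 1 was high for Elane at 79897, Prss34 at 6886, Igkc at 1386, Jchain at 233 and Ighm at 4573. It was also high for Fcgr2b at 1668, Lsp1 at 1416, Cdc20 at 1544 and the stem cell antigen gene Ly6a at 66.8, and low for Cxcl10 at 125. Ncr1 was flagged there at 0.927, which is 1 read against 0 in the rest of the group. Control mouse 2 was high for Gm37900 at 24.0, Edem1 at 967, Cd209a at 68.4 and the platelet gene Gp5 at 7.40, and low for Il4 at 4.62. Control mouse 3 was low for Pmaip1 at 675. Control mouse 4 was low for Upf2 at 687 and stood apart for Adam17 at 1278.

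Rab37 was the 1 gene whose genotype difference in GMP differed from the mean of LSK, CMP and MEP by the test of that difference itself, at 0.94 on the log2 scale.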

How the results depend on the processing

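Within GMP the count of 3 called genes was also obtained with pseudocounts of 0.5 and 10, without a filter, with a filter at 50, with TMM scaling, quantile normalization, robust variance, edgeR and voom. It was 0 with limma without a trend, 14 with DESeq2, 11 when all 32 libraries shared 1 fit, 1 (Cwc22) when mouse 1 of both genotypes was left out, and 0 to 2 with single libraries left out. The cause was not tested, except that fewer libraries lower the power by construction and that DESeq2 adjusted over fewer genes than limma. The log2 fold change of Cwc22 lay between -1.09 and -0.93 over 22 settings and lost its call in 7. Gm13694 lost its call in 8 of 22 settings. Gm13695 lost its call in 11 of 21, among them every setting with 1 library left out. Cxadr lay between -0.80 and -0.19 over 20 settings with no call. No log2 fold change recomputed under these settings changed sign; genes named for their level, such as Mpo, Elane, Irf8 and Prg2, were not recomputed.

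With the replicate block the count was again 3, with Gm13696 in place of Gm13695. The numbers stand for different animals, and the deviations of same-numbered libraries correlated at 0.31, 0.05, 0.03 and 0.06 for mice 1 to 4, against -0.13 to 0.06 for libraries of different numbers. The libraries of mouse 1 thus deviated together, those of mice 2 to 4 hardly, and Cxadr ko mouse 3 correlated better with control mouse 2 than with its own number, so the block was not taken as a pairing.

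For the difference between gates the count of 1 became 0 without the mouse block, 2 with a random mouse block, and 0 to 10 with single mice left out, 10 without Cxadr ko mouse 1 and 2 without Cxadr ko mouse 2. Rab37 lay between 0.83 and 1.07 and lost its call in 6 of 13 settings.

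TMM and quantile scaling moved the median of all genes to -0.003 and 0.006. The dendritic cell and MHC class II median lay between 0.29 and 1.06 and the mast cell and basophil median between 0.36 and 0.56 with 1 library left out. The sign of the median turned with at least 1 library left out in the late neutrophil, myeloid transcription factor, stem and multipotent progenitor, megakaryocyte, T and NK cell, growth factor receptor, BCL2 and p53, cell cycle, respiratory chain and mitochondrially encoded lists. Depth limits statements on genes below a mean of 100, where few intervals were narrow.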
